A study of Mus musculus with 4 samples.

Results

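The genes described here are 9 that write, copy or read DNA methylation: Dnmt1, Dnmt3a, Dnmt3b, Dnmt3l, Uhrf1, Hells, Mbd1, Mbd2 and Mbd4. They were taken as the probes whose gene name in the scanner files equals one of these symbols, which gave 16 probes for 9 of the 27974 genes on the array. Prostate RNA of male mice was hybridised to Agilent 1-colour (Cy3) expression arrays, with 1 array for each of 4 groups. The groups were C57BL/6 mice given olive oil, C57BL/6 mice given 600 mg/kg γ-TmT, TRAMP mice given olive oil and TRAMP mice given 600 mg/kg γ-TmT. γ-TmT (TmT below) is a mixture of tocopherols, the vitamin E family, that is rich in the gamma form. All mice were 8 weeks old, had eaten an AIN-76A diet, were fasted overnight before the gavage and were killed 12 h after it. TRAMP mice carry the SV40 early region behind a rat probasin promoter, which is active in prostate epithelium, so the transgene is not expected in every cell of the tissue. The strain background of the TRAMP mice is not given in the labels. Each group had 3 mice, and the labels do not say whether an array held 1 mouse or a pool, so no difference between 2 arrays has a replicate check.

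Methyl groups on the cytosines of CpG pairs are placed by DNMT3A and DNMT3B, with DNMT3L as a cofactor without catalytic activity of its own. At each round of replication the new strand is bare, and UHRF1 recognises the hemimethylated site and brings in DNMT1 to copy the mark, while the remodeller HELLS gives the enzymes access to packed chromatin. MBD1 and MBD2 bind methylated CpG and recruit repressors, and MBD4 is a glycosylase that removes the thymine left when a methylated cytosine is deaminated. In prostate cancer, methylation of promoters such as that of GSTP1 is a well-known change.

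RefSeq start-site windows of GRCm38.p6, 250 bases before to 50 after each annotated start, were at hand for 7 of the 9 genes, in 14 windows. The windows were searched on both strands for 4 forms of the E2F site, TTTCCCGC, TTTCGCGC, TTTGCCGC and TTTGGCGC, since E2F factors drive many genes of DNA replication. Windows of Dnmt1, Uhrf1 and Hells held a match, and those of Dnmt3a, Dnmt3b, Dnmt3l and Mbd4 held none of these letters. Of all 32851 windows 2.26% held a match, and of the 6053 windows with at least 25 CpG pairs 5.22% did. The 3 sites are shown as the matches among these genes, in stretches of 30 bases with the match in capitals and the bases around it in lower case:
Dnmt1: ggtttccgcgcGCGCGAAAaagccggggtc
Uhrf1: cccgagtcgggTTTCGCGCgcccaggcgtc
Hells: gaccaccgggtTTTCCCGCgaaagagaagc
The Dnmt1 site is at chr9:20952824-20952853 on the minus strand, with the match starting at -219 from the annotated start, and the same window has a further match at 33. The Uhrf1 site lies at chr17:56304117-56304146 on the plus strand, with its match at -185. For Hells the site is at chr19:38930917-38930946 on the plus strand, with its match at -62. All 3 windows are dense in CpG, with 33, 33 and 34 pairs against a median of 7. Among windows without a match, those of Dnmt3a with 46 and 47 pairs were denser. The others were less dense, with 30 pairs for Dnmt3b, 25 for Mbd4 and 18 for another Dnmt3a window. Dnmt3l windows had 6, 4 and 3 pairs, and further windows of Dnmt1 had 12 and 2 and of Uhrf1 12. Among genes without a match, Mbd4, Dnmt3b and Dnmt3l also read higher on both TRAMP arrays. Dnmt3l and the second Mbd4 probe did so by less than the spot error, and Dnmt3b by under 2-fold. Dnmt3a, also without a match, differed by probe. Its brightest probe had log2 differences of -0.05 after oil and 0.05 after TmT. Its other probes read higher on both TRAMP arrays, by 0.66 and 1.02 and by 0.20 and 0.45. Whether a match goes with the line difference was not tested. A match of letters does not show that a factor binds there.

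Levels below are log2 of the processed signal minus log2 of the array's 75th percentile, so 0 is the 75th percentile of that array. The error after ± on a level or on a difference of 2 arrays is the scanner software's error of the spot. It does not cover differences between mice, and it can be smaller than the scatter of repeated spots. Over 34 probes with 10 spots each, the median SD of the log2 signal was 0.313 on TRAMP after oil. On the other arrays it was 0.14 to 0.2. The value of 0.313 is above the spot error of each of the 16 probes on that array. Below, within or beyond the spot error refers to the scanner software's error only. A gene was represented by its brightest probe, and levels of different probes are not set against each other. Probe positions are those of the files, on mouse build mm9, and no annotation of that build was used here, so the part of the transcript that a probe covers is not given. A probe counts as measured on an array where the software marked it as well above background, which held on every array for 14 of the 16 probes and for 8 of the 9 genes.

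Between the lines, the genes that copy methylation after replication were higher in TRAMP prostate, and the enzymes that place new methylation differed less or not beyond the spot error. Uhrf1 was 10.6-fold higher in TRAMP after oil and 12.7-fold after TmT, and Dnmt1 3.36-fold and 2.59-fold. The glycosylase Mbd4 was 4.00-fold and 2.91-fold higher by its main probe, but 1.17-fold and 1.12-fold by its other probe. The first is the main probe only through its TRAMP levels, since the other was brighter on both C57BL/6 arrays. Counts below use the main probe. Hells was 14.8-fold higher after oil and at least 10.7-fold higher after TmT. With normexp background correction the log2 differences after oil and TmT were smaller, at 0.66 and 0.65 for Dnmt1 and 0.68 and 0.69 for Mbd4. These are under 2-fold. Uhrf1 had 2.79 and 2.44 and Hells 1.86 and 1.03, so the bound of 10.7-fold does not hold in that setting. After oil a difference of 2-fold or more was found for 5 of the 9 genes, 4 upward in TRAMP and 1 downward, against 7.74% and 7.84% of all 18921 genes measured on both arrays. After TmT 3 of 8 measured genes passed 2-fold upward and 0 downward, against 8.45% and 6.09% of 17251 genes, with Hells higher as a bound. Dnmt1, Uhrf1 and Mbd4 (by its main probe only) passed upward after both, as did 2.85% of the 16961 genes measured on all 4 arrays. The median difference of the measured members was 0.54 after oil and 0.56 after TmT, where all genes had -0.07 and 0.01.

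**Figure D1:**
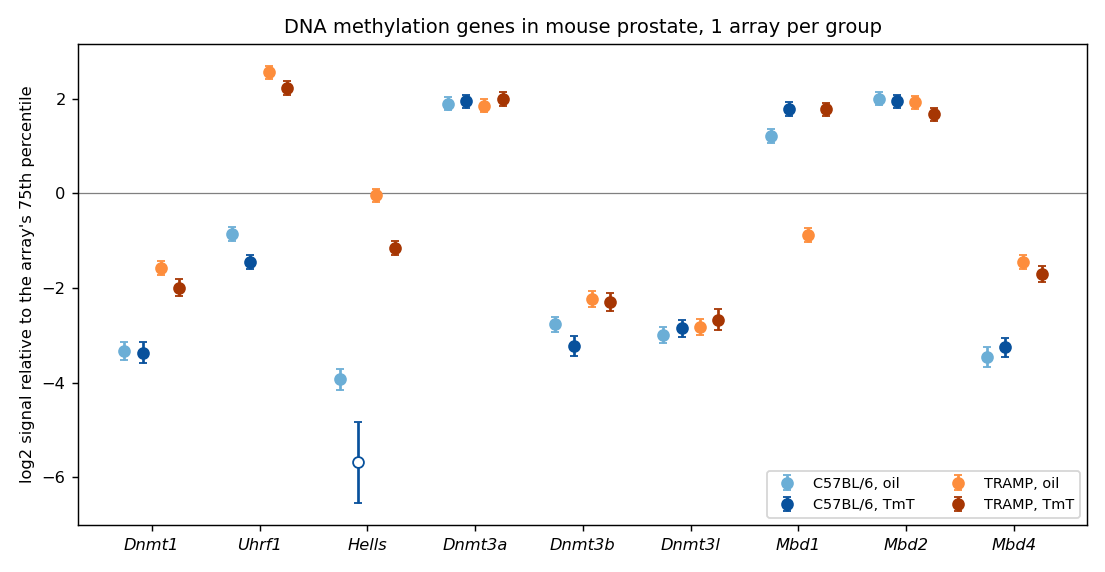
Level of each of the 9 genes on the 4 arrays, as log2 signal relative to the array's 75th percentile, with the scanner software's spot error as bars. The open circle is Hells on the array of C57BL/6 after TmT, which was not well above background. Each gene is shown by its brightest probe. Uhrf1, Hells, Dnmt1 and Mbd4 have both TRAMP arrays above both C57BL/6 arrays, Dnmt3a and Mbd2 have 4 arrays close together, and Mbd1 is low on 1 array.

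Uhrf1, the reader of hemimethylated DNA, had levels of -0.86 ± 0.15 in C57BL/6 after oil, -1.45 ± 0.15 in C57BL/6 after TmT, 2.55 ± 0.14 in TRAMP after oil and 2.22 ± 0.14 in TRAMP after TmT. The 2 TRAMP arrays were both far above the 2 C57BL/6 arrays. The differences between the lines were 3.41 ± 0.20 after oil and 3.67 ± 0.21 after TmT. A second Uhrf1 probe, 43 bases away, read -2.37, -2.77, 0.61 and 0.24 in the same order of groups. It gave differences of 2.98 ± 0.21 and 3.01 ± 0.23, so both probes put the groups in the same order. The probes lie at chr17:56462657-56462716 and chr17:56462554-56462613. In the additive fit of line and treatment over all 4 arrays (limma, 1 residual degree of freedom, 19925 genes), Uhrf1 was 3.54 ± 0.33 (SE) higher in TRAMP, with a 95% interval of 2.72 to 4.36 and an adjusted p of 0.0488. That fit called 0.1% of genes higher and 0.0351% lower. Its only residual is the interaction of line and treatment, so its intervals and p-values do not measure a spread between replicate arrays. Hells had the same adjusted p, the lowest of the fit, so this value does not rank Uhrf1 first. By size of the fitted line difference, Uhrf1 was at rank 25 from the highest of the 19925 genes. Its call was lost in 4 of 9 alternative settings, where the adjusted p ran from 4e-06 to 0.0912.

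Hells, a SNF2-family remodeller needed for methylation of repeats, is measured by 1 probe at chr19:39039914-39039973. Its levels were -3.93 ± 0.22 in C57BL/6 after oil, -0.04 ± 0.14 in TRAMP after oil and -1.15 ± 0.15 in TRAMP after TmT. In C57BL/6 after TmT the probe was not well above background, at a measured -5.68 ± 0.86. The TRAMP arrays were thus the high ones, and the oil array was the higher within each line. After oil the lines differed by 3.89 ± 0.26. A bound of at least 10.7-fold after TmT sets the TRAMP signal against the lowest signal that was well above background on the C57BL/6 array. With normexp background correction the differences were 1.86 after oil and 1.03 after TmT, and the fitted line difference was 1.44. The fit gave 4.21 ± 0.35 (SE; 95% interval 3.34 to 5.09), adjusted p = 0.0488 by limma, and it includes the array below background. Over 8 alternatives the adjusted p ran from 0.00191 to 0.0912, and 4 of them kept the call.

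Dnmt1, the maintenance methyltransferase, is measured by 1 probe at chr9:20711973-20712341 on the minus strand, whose genomic span of 369 bases is longer than its 60 bases. The levels were -3.33 ± 0.18 in C57BL/6 after oil, -3.37 ± 0.22 in C57BL/6 after TmT, -1.58 ± 0.15 in TRAMP after oil and -1.99 ± 0.18 in TRAMP after TmT. Both TRAMP arrays were above both C57BL/6 arrays, which differed from each other by less than the spot error. The line difference was 1.75 ± 0.24 after oil and 1.37 ± 0.28 after TmT. In the fit it was 1.56 ± 0.33 (SE; 95% interval 0.73 to 2.39), which did not pass the threshold (adjusted p = 0.145 by limma, 0.0588 to 0.178 over 9 alternatives).

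The de novo enzymes gave smaller values. Dnmt3a read 1.89 ± 0.14, 1.94 ± 0.14, 1.85 ± 0.14 and 1.99 ± 0.14 in the order C57BL/6 oil, C57BL/6 TmT, TRAMP oil and TRAMP TmT by its brightest probe (chr12:3906868-3907649). All 4 arrays lay within the spot error of each other, the fitted line difference was -0.00 ± 0.32 (SE), and its 95% interval of -0.81 to 0.81 allows a change of either sign. The other Dnmt3a probes did not repeat this flat pattern. A probe 577 bases downstream (chr12:3908227-3908286) read 0.56, 0.61, 1.22 and 1.63, higher in TRAMP by 0.66 ± 0.20 after oil and 1.02 ± 0.20 after TmT. The third probe (chr12:3912590-3912649) read 0.80, 0.62, 0.99 and 1.08, with differences of 0.20 ± 0.20 and 0.45 ± 0.20. The first and second probes differed from each other in the line comparison by -0.71 ± 0.29 after oil and -0.97 ± 0.29 after TmT, so the change of Dnmt3a depends on the probe read.

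Dnmt3b (chr2:153513083-153513142) had levels of -2.77 ± 0.16 and -3.22 ± 0.21 in C57BL/6 after oil and TmT, and of -2.23 ± 0.17 and -2.29 ± 0.19 in TRAMP. Both TRAMP arrays were the higher ones, by 0.54 ± 0.23 after oil and 0.93 ± 0.29 after TmT, under 2-fold each. The oil value was 0.20 without the scanner software's multiplicative detrending. The fit gave 0.74 ± 0.33 (SE), adjusted p = 0.371 by limma (0.298 to 0.497 over 9 alternatives). Dnmt3l, the cofactor used mainly in germ cells (chr10:77526112-77526171), stayed between -2.99 ± 0.17 and -2.67 ± 0.22 on the 4 arrays. Its line differences of 0.17 ± 0.24 and 0.18 ± 0.28 were within the spot error.

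**Figure D2:**
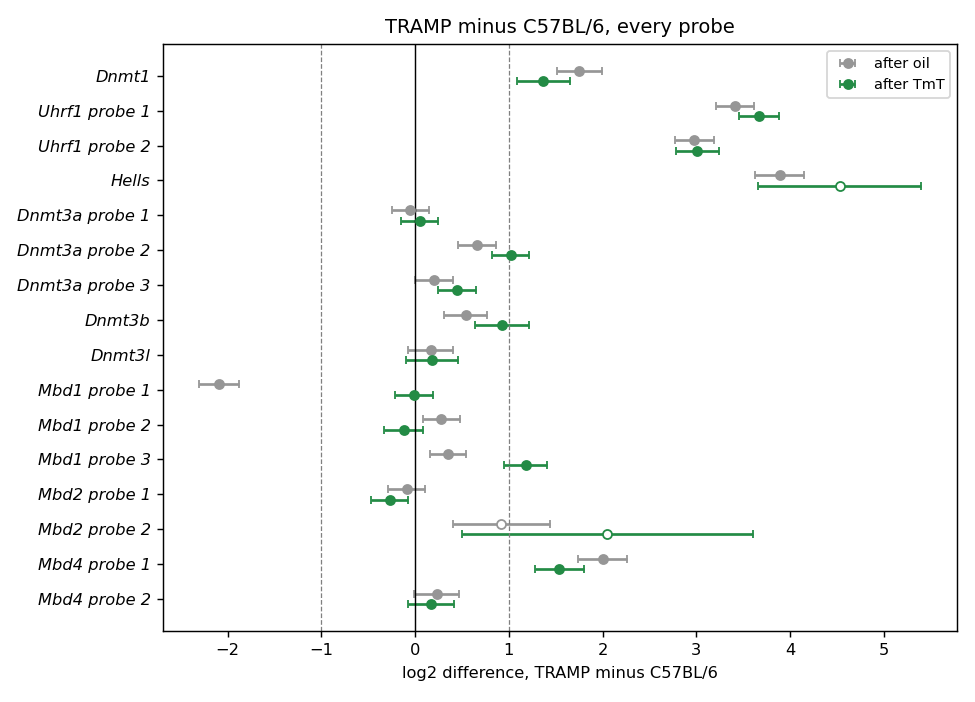
Log2 difference between TRAMP and C57BL/6 for each of the 16 probes, after oil (grey) and after TmT (green), with the spot error as bars and dashed lines at 2-fold. Open circles are differences in which a probe was not well above background on at least 1 array. The Uhrf1 probes lie near 3 or above, the Mbd4 probes differ from each other, and Mbd1 probe 1 is low only after oil.

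The methyl-CpG binding genes split by probe. Mbd4 read -3.45 ± 0.21, -3.25 ± 0.20, -1.45 ± 0.15 and -1.71 ± 0.17 in C57BL/6 oil, C57BL/6 TmT, TRAMP oil and TRAMP TmT, at chr6:115792515-115792574 on the minus strand. The TRAMP arrays were above the C57BL/6 arrays by 2.00 ± 0.26 after oil and 1.54 ± 0.26 after TmT. The fit gave 1.77 ± 0.34 (SE), adjusted p = 0.116 by limma, and over 9 alternatives the adjusted p ran from 0.0374 to 0.265. A second Mbd4 probe 317 bases away (chr6:115792138-115792197), which stands for a separate cDNA record, read -2.99, -2.44, -2.77 and -2.27. It differed between the lines by 0.23 ± 0.24 and 0.17 ± 0.25, that is by less than the spot error. The 2 probes differed from each other in the line comparison by 1.78 ± 0.35 after oil and 1.37 ± 0.37 after TmT.

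Mbd1 stood out on a single array. By its brightest probe (chr18:74442192-74442251) it read 1.21 ± 0.14 in C57BL/6 after oil, 1.78 ± 0.14 in C57BL/6 after TmT, -0.88 ± 0.15 in TRAMP after oil and 1.77 ± 0.14 in TRAMP after TmT. The 3 other arrays were near each other and TRAMP after oil was 4.25-fold below C57BL/6 after oil, while after TmT the lines differed by -0.01 ± 0.20. A second probe 413 bases away (chr18:74441719-74441778) did not have this dip: it read 0.31, 0.53, 0.59 and 0.41, with line differences of 0.28 ± 0.20 and -0.12 ± 0.21. The third probe (chr18:74429246-74429305) read -1.50, -2.35, -1.14 and -1.17, higher in TRAMP by 0.35 ± 0.19 after oil and 1.18 ± 0.23 after TmT. Its oil value turned to -1.18 without multiplicative detrending, since the software had divided that spot by 0.351 on the array of TRAMP after oil. For the first probe the same setting gave -2.37. The pixels of the first probe's spot varied by 15.9% on that array and by 18.1% to 20% on the others, and no outlier mark was set. The fitted line difference of Mbd1 was -1.05 ± 0.55 (SE), adjusted p = 0.425 by limma (0.0603 to 0.95 over 9 alternatives).

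A dip on this array was not limited to Mbd1. Of 16961 genes above background on all 4 arrays, 2.85% were at least 2-fold below all 3 other arrays on TRAMP after oil, against 1.22% on TRAMP after TmT, 0.749% on C57BL/6 after oil and 0.696% on C57BL/6 after TmT. Adipocyte markers were also highest there, with a mean level of 1.08 over 7 genes against -1.62 in C57BL/6 after oil, -1.74 in C57BL/6 after TmT and -1.84 in TRAMP after TmT, and with Lep not above background on any array. Their part in the Mbd1 value was not tested.

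Mbd2 differed little. Its brightest probe (chr18:70740407-70740466) read 2.00 ± 0.14, 1.94 ± 0.14, 1.92 ± 0.14 and 1.67 ± 0.14 in the same order. The line differences were -0.09 ± 0.20 after oil and -0.27 ± 0.20 after TmT, with a fitted value of -0.18 ± 0.32 (SE). The second Mbd2 probe was well above background only on TRAMP after oil, which gives at least 1.39-fold over C57BL/6 after oil.

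For TmT against oil, few members passed 2-fold, and with 8 or 9 measured these counts do not set the members apart from all genes. In C57BL/6 mice 0 of 8 measured members were at least 2-fold higher or lower, against 3.12% and 2.63% of 18665 genes. In TRAMP mice 1 of 9 was at least 2-fold higher (Mbd1) and 1 at least 2-fold lower (Hells), against 8.66% and 4.86% of 17465 genes. The members' median was 0.01 in C57BL/6 and -0.25 in TRAMP, and that of all genes 0.02 and 0.10. In the treatment term of the limma fit 0% of all genes passed the adjusted threshold, 1248 were at an unadjusted p under 0.05 where 996.25 would fall by chance alone, and the lowest adjusted p was 0.773 (4.36e-10 to 0.78 over the alternatives).

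Hells was lower after TmT in TRAMP, by -1.11 ± 0.21. In C57BL/6 the level after TmT was at least 1.55-fold lower, but this direction turned with normexp background correction, which gave 0.12 in C57BL/6 and -0.70 in TRAMP. The fitted treatment value was -1.43 ± 0.35 (SE; 95% interval -2.30 to -0.55), with an adjusted p of 0.773 by limma (0.46 to 0.78 over 8 alternatives), and it was -0.29 with normexp. Uhrf1 was lower by both probes in both lines, by -0.59 ± 0.21 and -0.40 ± 0.24 in C57BL/6 and by -0.33 ± 0.20 and -0.38 ± 0.21 in TRAMP, and its fitted -0.46 ± 0.33 (SE) had an adjusted p of 0.797 by limma (0.316 to 0.805 over 9 alternatives). Dnmt1 differed by -0.04 ± 0.29 and -0.41 ± 0.23, with a fitted 95% interval of -1.06 to 0.60.

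The TRAMP value of Mbd1, 2.65 ± 0.21, was the return from its dip after oil, and the second Mbd1 probe gave -0.18 ± 0.21. In C57BL/6 the 3 Mbd1 probes gave 0.57 ± 0.20, 0.22 ± 0.20 and -0.85 ± 0.23, which do not share a sign. The second Mbd4 probe was higher after TmT in both lines, by 0.55 ± 0.24 and 0.50 ± 0.25, where the first gave 0.19 ± 0.29 and -0.26 ± 0.23. No member had treatment differences of opposite sign in the 2 lines that were both beyond the 95% range of their spot error.

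**Figure D3:**
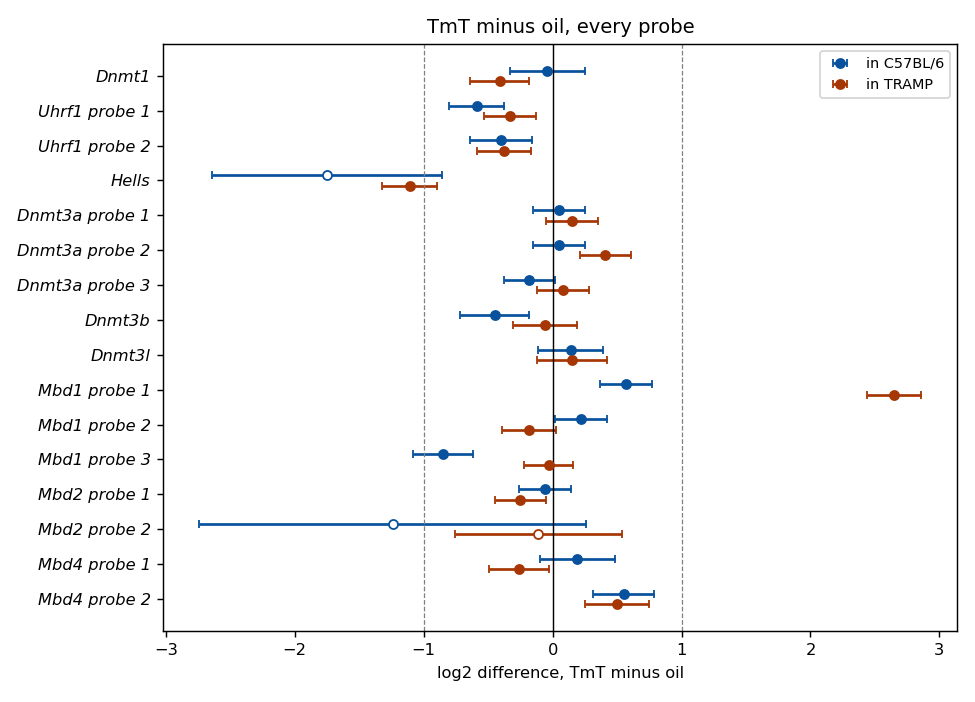
Log2 difference between TmT and oil for each of the 16 probes in C57BL/6 (blue) and TRAMP (brown), with the spot error as bars and dashed lines at 2-fold. Open circles are differences in which a probe was not well above background on at least 1 array. Most probes lie within 1 of 0, Hells lies below 0 in both lines (in C57BL/6 at 0.12 with normexp), and Mbd1 probe 1 reaches 2.65 in TRAMP.

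Genes that work with methylation are given next, from lists that were chosen with earlier results of these data known. Among partners of the methylation enzymes, 5 of 14 measured genes were at least 2-fold higher in TRAMP after oil and 2 of 13 after TmT. Of all genes 7.74% and 8.45% were so. The medians of the partners were 0.65 and 0.38. Lig1, the ligase that joins Okazaki fragments and binds UHRF1, was higher in both, by 2.20 and 1.98. Pcna, the sliding clamp that holds DNMT1 at the fork, was higher by 1.47 and 0.99. Cdca7l differed by 2.07 after oil and 0.17 after TmT, and Suv39h1, a histone H3 lysine methyltransferase, by 1.52 and 0.96.

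The demethylation genes had medians of -0.16 and -0.15 over 9 measured genes. Tet2, a dioxygenase that oxidises methylcytosine, had levels of 1.90 and 2.01 on the C57BL/6 arrays and 0.87 and 1.01 on the TRAMP arrays. It was lower in TRAMP by -1.02 after oil and just short of 2-fold lower after TmT. No demethylation gene thus passed 2-fold in 1 direction after both, against 2.85% of all genes upward and 1.66% downward. Tet1 differed by -0.22 and -0.15, and Tet3 by 0.67 and 0.18. The uracil glycosylase Smug1 was at 0.80 after oil and -1.31 after TmT.

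Of the other methyl-CpG readers 8 were measured, with medians of 0.29 and 0.20. None was at least 2-fold different in the same direction after both treatments, against 2.85% of all genes upward and 1.66% downward. Uhrf2, the relative of Uhrf1, did not follow it: it read 2.30, 3.15, 3.93 and 2.47 in C57BL/6 oil, C57BL/6 TmT, TRAMP oil and TRAMP TmT, which is 1.63 higher in TRAMP after oil and -0.67 after TmT. Mbd3, a subunit of the NuRD complex, was at -1.93 for TmT against oil in TRAMP and at -0.91 in C57BL/6.

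In the methyl donor cycle, 3 of 18 measured genes were at least 2-fold higher in TRAMP after oil, against 7.74% of all genes. After TmT 2 were higher and 3 lower, against 8.45% and 6.09% of all genes. Tyms, which makes thymidylate from a folate cofactor, was higher in both, by 2.18 and 1.12. The methionine adenosyltransferase gene Mat2a, which makes the methyl donor S-adenosylmethionine, differed by 0.56 and 0.76, and Ahcy, which clears its product, by 0.98 and 0.24. No gene of these lists outside the 9 passed the limma fit for line or for treatment. Of all genes that fit called 0.1% higher and 0.0351% lower for line and 0% for treatment. The lists are thus not set apart from all genes by this.

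Genes whose promoters are known to be methylated in prostate cancer had medians of -0.25 after oil and 0.02 after TmT over 15 measured genes. At least 2-fold lower in TRAMP were 4 after oil and 1 after TmT, against 7.84% and 6.09% of all genes. At least 2-fold higher were 0 after either, against 7.74% and 8.45% of all genes. Ednrb, an endothelin receptor, was lower in TRAMP after both, by -1.18 and -1.03. Ptgs2, the inducible cyclooxygenase, read -1.04, -0.50, -3.70 and -0.15 in the 4 groups, and Rarb, a retinoic acid receptor, -1.81, -1.79, -3.62 and -2.00, so both were low on TRAMP after oil alone, as the first Mbd1 probe was. Gstp1 differed by -0.30 and -0.31. The arrays measured RNA, and methylation itself was not measured.

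Of 13 germline genes that methylation is known to silence in somatic tissue, 5 were measured on both arrays after oil and 4 after TmT, and the others were mostly not above background. Taf7l, a paralog of a TFIID subunit, was lower in TRAMP after both, by -1.75 and -1.89. Dazl, an RNA-binding protein of germ cells, differed by 1.23 and 0.38. Tex19.1 (Tex19 in the files) read -4.50 on C57BL/6 after oil and -0.44, -0.52 and -1.21 on the other arrays, so 1 array was low and the lines overlapped.

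**Figure D4:**
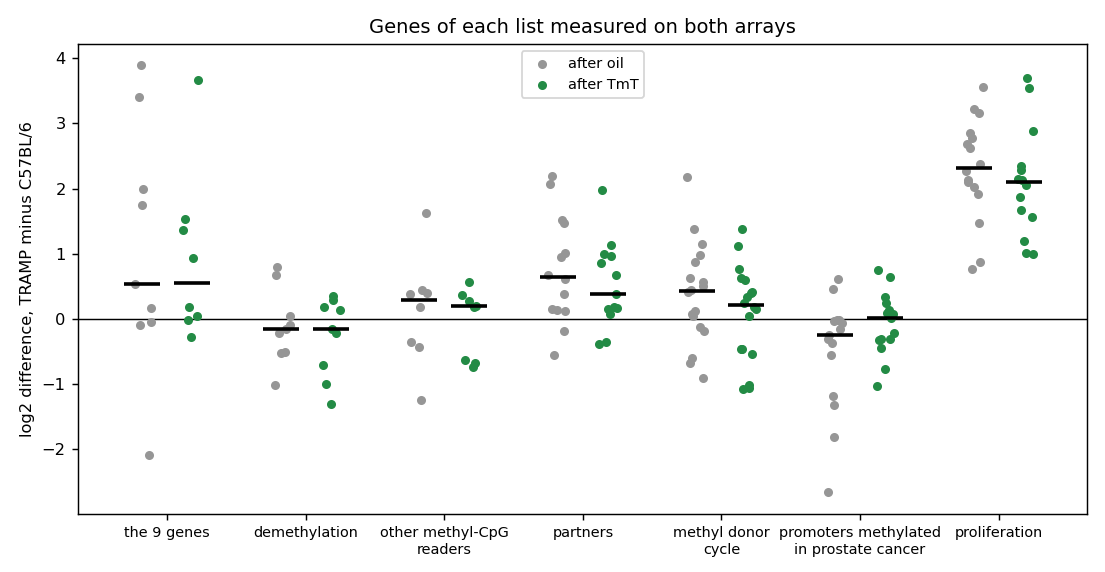
Log2 difference between TRAMP and C57BL/6 for each gene of 7 lists that was well above background on both arrays, after oil (grey) and after TmT (green), with the median as a bar. The proliferation list has medians of 2.32 and 2.09, the 9 methylation genes 0.54 and 0.56, and the demethylation list -0.16 and -0.15.

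Proliferation genes moved with the line in the same direction as Uhrf1, Hells and Dnmt1. At least 2-fold higher in TRAMP were 14 of 16 after oil, 13 of 14 after TmT and 11 of 14 after both. Of all genes 7.74%, 8.45% and 2.85% were so. Their mean level was 0.05 and -0.56 on the C57BL/6 arrays and 2.34 and 1.58 on the TRAMP arrays. Their part in the values of the 9 genes was not tested. Prostate epithelial markers were all 7 above background on all arrays, with mean levels of 4.91 and 5.12 in C57BL/6 and 3.67 and 3.77 in TRAMP. In bulk tissue fewer cells of a type and less RNA per cell cannot be told apart.

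The genes with the pattern most like these members were sought among 12128 genes, as the smallest distance between centred levels over the 4 arrays. For Uhrf1 they were Mcm3, a subunit of the replicative helicase, at a distance of 0.344, Vsig1 at 0.441 and Wdhd1 at 0.55. For Dnmt1 they were Ung, the uracil glycosylase, at 0.0818, Fkbp5 at 0.202 and Xdh at 0.213. For Mbd4 they were Anpep at 0.0672, Cchcr1 at 0.141 and Pmf1 at 0.221. These are likenesses over 4 values that share their arrays, and no more was read from them.

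The arrays differed in brightness: spots well above background made up 63.9% to 74.1% of all, and the 75th percentile of the signal was lowest, 71.3, on TRAMP after TmT and 118 to 161 on the others. The multiplicative detrending of the scanner software was applied on 3 arrays and not on TRAMP after TmT.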

How the data were processed

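The intensity values per spot were made by the authors' scanner software, Agilent Feature Extraction 10.2.1.3, which subtracted background, per the file headers. On 3 arrays it also divided the signal by a spatial detrending factor. On the array of TRAMP after TmT it listed such a factor but did not apply it, as tested on the deposited intensity values. The deposited value table held the same intensities for 45018 of 45018 features of each array. Detrending factors, flags and probe positions (mm9) were used as deposited. Aligner and read counts do not apply.

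Control spots and outlier spots were left out. Log2 of the signal minus log2 of the array's 75th percentile was averaged over spots of 1 probe. A gene was its brightest probe by the mean level over the 4 arrays, so the TRAMP arrays had a part in the choice. limma 3.58.1 in R 4.3.3 was fitted with line and treatment as additive terms to the 19925 genes that passed the background mark on 2 or more arrays, with Benjamini-Hochberg adjustment over all of them and a threshold of 0.05. Its 1 residual degree of freedom is the interaction. Between 2 arrays no test was made, and at least 2-fold was counted where both were well above background. A bound uses the lowest signal well above background on the dim array.

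The 9 members and the gene lists were chosen with earlier results of these data known. All members were named. From other lists, genes at least 2-fold different in the same direction after both treatments were named, and up to 4 others with the largest differences; Tet1, Tet3, Mat2a, Ahcy and Gstp1 were named for their role after their values were seen. Alternatives were quantile normalization, median centring, normexp (outlier spots left out first, offset 50), the mean over probes, other filters, every probe as a feature, a 3-fold threshold, and, chosen after seeing the data, detrending on no array or on all 4.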

Additional observations from a re-analysis of the deposited data

How the results depend on the processing

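The number of genes called between the lines, 27, was sensitive to the processing: it was 0 with quantile normalization, 0 with the mean over all probes, 0 with every probe as its own feature, 0 with no multiplicative detrending, 49 with detrending on all 4 arrays, 76 with median centring, 278 with genes above background on all 4 arrays and 1165 with normexp. Genes called for treatment were 115 with normexp against 0. Uhrf1 and Hells kept their direction throughout and lost the call, with adjusted p (limma) of 0.0778 each with quantile normalization, 0.0733 and 0.0624 with the mean over probes, 0.0707 each with every probe and 0.0912 each without detrending. Mbd4 passed at 0.0374 with genes above background on all 4 arrays, where fewer genes are tested. Fitted line differences near 0 changed sign: Dnmt3a to 0.07 with quantile normalization, 0.39 with the mean over probes and 0.03 without detrending, and Mbd2 to 0.65 with the mean over probes and 0.01 without detrending. Fitted treatment differences changed sign for Dnmt1 (0.11), Dnmt3a (-0.18), Dnmt3b (0.32) and Mbd4 (0.27) with normexp, for Dnmt3a (-0.01) and Mbd4 (0.32) without detrending, and for Mbd4 at 0.25 with the mean over probes and 0.12 with detrending on all arrays. The cause was not tested. Members at least 2-fold different numbered 3 with normexp against 5 between the lines after oil, and after TmT 1 with normexp and 1 at a 3-fold threshold against 3. For TmT against oil they numbered 1 in C57BL/6 with no filter on dim probes against 0, and in TRAMP 1 with normexp, 1 with the mean over probes, 1 with genes above background on all 4 arrays and 1 at 3-fold, against 2. With normexp Hells turned from lower to 0.12 for TmT against oil in C57BL/6, and its fitted treatment difference was -0.29. The detrending alternatives were chosen after seeing the data. No array could be left out, since 3 arrays leave no residual degree of freedom. No paired analysis was possible because each group has 1 array. Dim probes (Hells, Dnmt1, Mbd4, Dnmt3b, Dnmt3l) are limited by signal over background.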
